A study of Mus musculus with 2 samples.

Results

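The Dpp4 family and the related prolyl peptidases were examined as 7 genes, Dpp4, Fap, Dpp8, Dpp9, Prep, Prcp and Dpp7, found by an exact match of the gene symbol among the 31053 genes of each library. All 7 were found. The data are single-cell RNA counts from the skin of C57Bl6 mice, 8 weeks old and of both sexes, made with the 10x Chromium system, which counts each captured RNA molecule once by its molecular identifier (UMI). One group received 100 ng of sitagliptin in 100 µl of PBS by intradermal injection, the other PBS alone, and 48 h is given as the time. Sitagliptin is a drug that inhibits the DPP4 enzyme. There was 1 library per group, and the labels do not say how many mice each library held, so no comparison between the libraries had a replicate and no test was run. All intervals below are exact 95% intervals that cover counting error only.

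The enzymes of these genes cut next to proline, a bond that most proteases leave alone. DPP4, also known as CD26, is a membrane protein that removes dipeptides from the amino terminus of chemokines, incretins and neuropeptides. In skin it is a marker of some fibroblasts of the fascia and the dermis. FAP, its closest relative, adds an endopeptidase activity and is known from activated fibroblasts. DPP8 and DPP9 are cytosolic, PREP is a cytosolic oligopeptidase, and PRCP and DPP7 are carboxypeptidase-related enzymes of lysosomes and vesicles.

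The PBS-labelled library held 10456 barcodes, of which 5932 had 500 genes or more, 1000 UMIs or more and no more than 10% of UMIs from mitochondrial genes. The sitagliptin-labelled library held 22085, of which 18380 passed. Retained cells had a median of 6902 UMIs in the first and 2197 in the second. The 2 libraries shared 75 barcodes. The deposited names of each treatment's files carry the first letter of the opposite treatment. The libraries are therefore called by their labels, and an exchange of labels, which cannot be told from the counts, would turn every direction between them. Cells were clustered without the 7 genes. Clusters were named from marker genes, so that each class name below means cells like that type. Of the retained cells, 2.93% of the PBS-labelled and 35.2% of the sitagliptin-labelled library stayed in clusters without a name. Several dermal and immune classes came mostly from 1 library: fibroblasts numbered 479 against 60, macrophages 462 against 6 and monocytes 587 against 41. Langerhans cells, at 94 against 127, did not. Suprabasal cells numbered 1120 against 4844. Levels are given as UMIs per 1000000 UMIs of a class (CPM), in classes with at least 50 cells in a library, which gave 16 points from PBS-labelled and 13 from sitagliptin-labelled cells.

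Dpp4 and Fap lie on the same strand of mouse chromosome 2 (mm10), Dpp4 at chr2:62330073-62412231 and Fap at chr2:62500943-62574075, 88.7 kb apart with Gcg as the only protein-coding gene between them. Dpp7 is on the same chromosome at chr2:25352276-25356359. Dpp8 is at chr9:65032414-65082651, Dpp9 at chr17:56186807-56218905, Prep at chr10:45067203-45167198 and Prcp at chr7:92874470-92934583. An antisense gene, Gm13561, overlaps Dpp4 over 55161 bases, but it held 1 UMI in each library. The bases just upstream of the start of Dpp4, with a level that differed widely between skin classes of the PBS-labelled library, and of Dpp8, with a level nearly even across them, are shown because their profiles across the classes contrast. They are from RefSeq promoters of GRCm38.p6, which matched 5 of the 7 genes, not Fap and Prep. Capitals mark the dinucleotide CG, which reads the same on both strands, and bases inside an annotated exon were left off.
Dpp4, chr2:62412232-62412481, minus strand: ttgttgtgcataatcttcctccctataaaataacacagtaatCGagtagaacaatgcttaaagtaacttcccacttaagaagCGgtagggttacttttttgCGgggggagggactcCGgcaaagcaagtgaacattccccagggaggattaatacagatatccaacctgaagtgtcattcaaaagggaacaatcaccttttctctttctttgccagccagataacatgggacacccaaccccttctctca
Dpp8, chr9:65032208-65032413, plus strand: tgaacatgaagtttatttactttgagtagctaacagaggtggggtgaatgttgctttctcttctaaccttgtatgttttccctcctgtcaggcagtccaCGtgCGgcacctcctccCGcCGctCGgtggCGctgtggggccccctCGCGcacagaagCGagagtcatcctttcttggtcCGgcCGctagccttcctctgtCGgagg
The full 250 bases upstream of the RefSeq start, bases inside annotated exons included, held 4 CG in Dpp4, 17 in Dpp8, 8 in Dpp9, 9 in Dpp7 and 11 in Prcp. Of those of Dpp8, 12 lie in the bases shown. The Prcp window begins inside an annotated exon. Over the 32851 RefSeq promoters the median was 6, and 92.1% held at least 1 CG. As many as 44.4% of promoters had at most the number of Dpp4, and 23.5% had at least that of Dpp8. These counts are a description of the sequence and carry no statement on how either gene is regulated.

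Dpp4 was highest in fibroblasts, the collagen-making cells of the dermis. In the PBS-labelled library fibroblasts held 200.5 CPM (184.8 to 217.2, 600 UMIs in 479 cells), and the next class, lymphatic endothelial cells, held 16.5 CPM (4.49 to 42.2) on 4 UMIs. The ratio between these neighbours was 12.2 (4.73 to 44.8), the only step between neighbours in the order of the 16 classes whose interval left out 1. Fibroblasts were 8.08% of the retained cells and held 62.1% of the library's Dpp4 UMIs. Below them came monocytes with 14.0 CPM (10.3 to 18.6), skeletal muscle with 10.5 and dividing suprabasal keratinocytes with 9.60. Macrophages, at 1.86 CPM (0.605 to 4.35), were near the bottom of the order. The class named monocyte was also led by antigen-presentation genes (H2-Aa, Cd74, H2-Ab1, H2-Eb1), and at a finer resolution 368 of its 587 cells fell in a cluster that kept no name. The highest marker score of that cluster was for another class, with monocyte second. Dpp4 was at 14.8 CPM in that cluster and at 12.5 CPM in the 218 cells that were still named monocyte.

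Dpp4 was higher in basal than in upper follicle keratinocytes in both libraries. Basal cells, which rest on the basement membrane, held 6.46 CPM with the PBS label and 6.05 CPM with the sitagliptin label. Upper follicle cells, which line the duct above the sebaceous gland, held 1.89 and 1.39 CPM. These levels rest on 39 and 22 UMIs in basal and 15 and 13 UMIs in upper follicle cells. Basal cells were therefore 3.41-fold (1.84 to 6.67) and 4.36-fold (2.10 to 9.42) higher. Dividing basal cells (9.28 and 8.15 CPM) and dividing upper follicle cells (1.26 and 1.24 CPM) showed the same order in both libraries. The order did not extend to the whole follicle: outer root sheath or bulge cells held 6.50 and 3.43 CPM, on 9 and 17 UMIs. Suprabasal cells, the differentiating layers, held 8.94 CPM (7.47 to 10.6) and 6.52 CPM (5.68 to 7.45). Among their clusters the one led by Krt6b, Krt16 and Krt1 held 11.2 and 9.63 CPM, and the one led by Lor, a gene of the cornified layer, 5.25 and 5.53 CPM. These are low levels: 9.20% of the suprabasal cells of the PBS-labelled library had a Dpp4 UMI, and 1.16% (0.619 to 1.98) did after each cell was thinned to 1000 UMIs. Of upper follicle cells, 1.89% had one, and 0.252% after thinning.

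**Figure D1:**
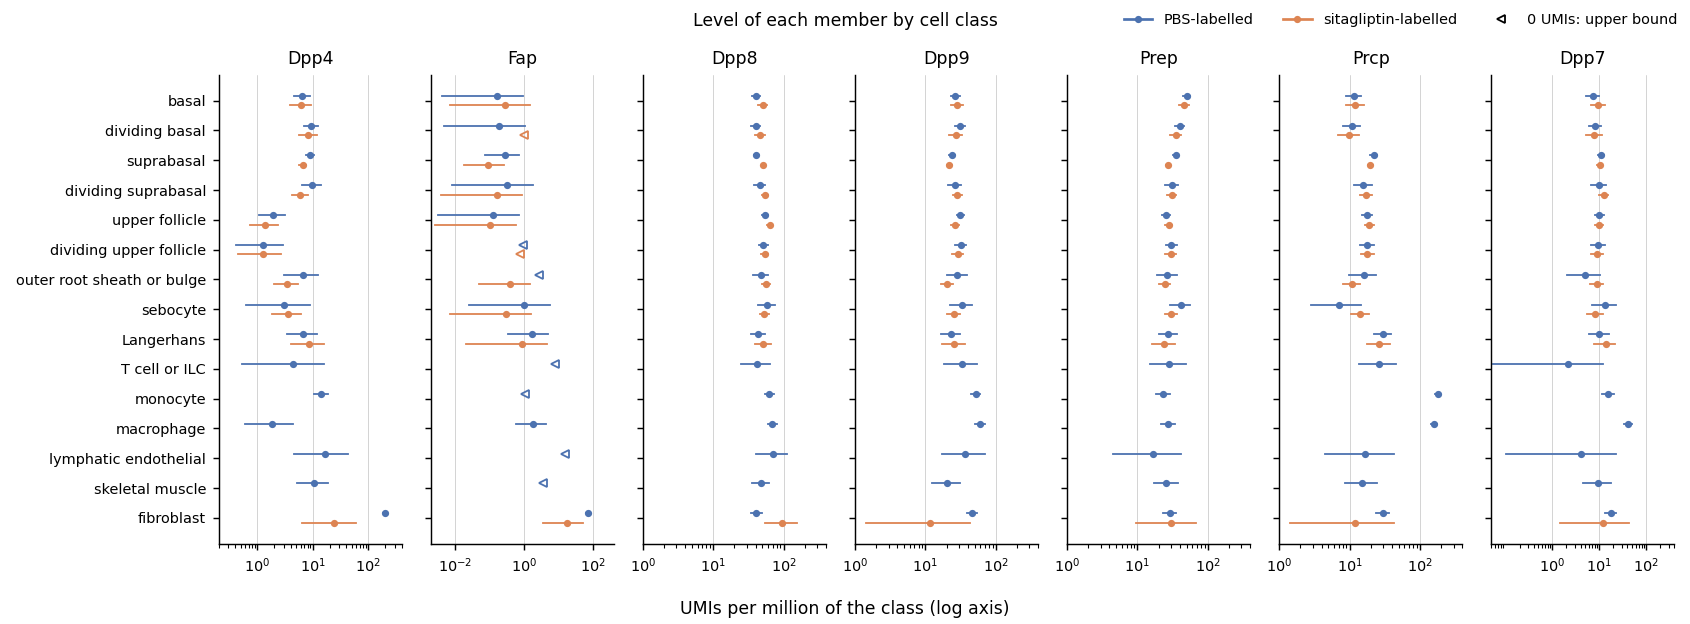
Level of the 7 genes in CPM (log axis, range set per gene) by cell class; points are levels, lines exact 95% Poisson intervals, and open triangles the upper bound where a class held 0 UMIs. Dpp4 and Fap stand out in fibroblasts of the PBS-labelled library (200.5 and 70.8 CPM), Prcp in monocytes and macrophages, and Dpp8 lies near 40 to 70 CPM in nearly every class.

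The measured Dpp4 of keratinocytes was set beside the level that free fibroblast RNA would bring. If every Col1a2 UMI of a keratinocyte class had come with Dpp4 in the ratio seen in fibroblasts of the PBS-labelled library, the 12 points of the epidermal and upper follicle classes would hold 0 to 0.270 CPM of Dpp4. They held 1.24 to 9.60 CPM, above that value at 12 of 12 points. Fap was above the value set in the same way at 9 of these 12 points, with 0 to 0.331 CPM measured against 0 to 0.0954, and at 0 UMIs in the other 3. At each of the 12 points 1 Fap UMI was enough to pass that value, so this count only tells which points held a Fap UMI. In fibroblasts 73.9% (70.7 to 76.9) of the UMIs of Dpp4 and Fap together were Dpp4, and in suprabasal cells of the PBS-labelled library 97.0% (92.5 to 99.2), or 129 UMIs of Dpp4 against 4 of Fap. In suprabasal cells of the sitagliptin-labelled library it was 98.6% (96.0 to 99.7), 215 UMIs against 3. These intervals did not overlap that of fibroblasts. The part of free RNA in the low levels of either gene was not tested.

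**Figure D2:**
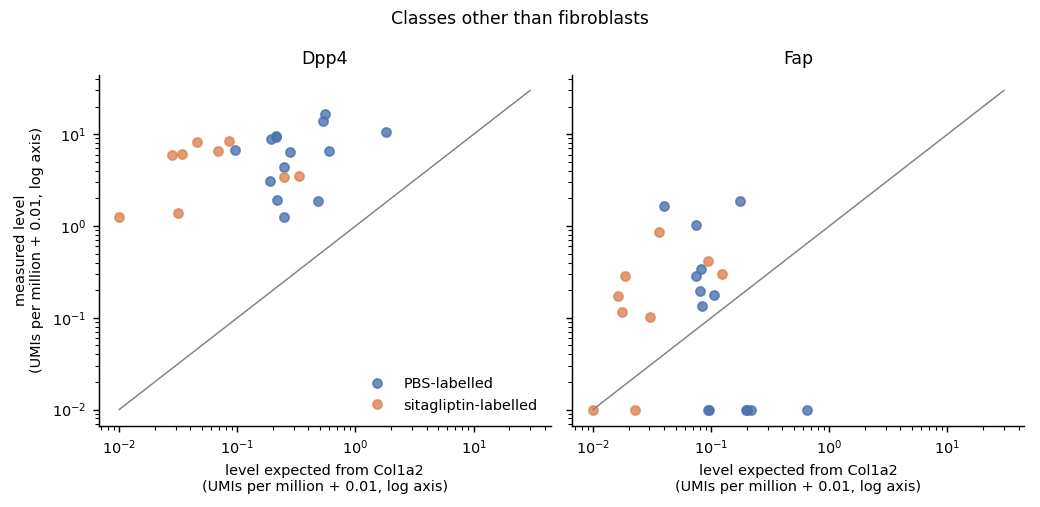
Measured level against the level expected if all Col1a2 UMIs of a class carried Dpp4 or Fap in the fibroblast ratio, in CPM plus 0.01 on log axes, 1 point per named class other than fibroblasts and library, with the line of equality. Every Dpp4 point lies above the line, and the points at the bottom of the Fap panel are classes with 0 Fap UMIs.

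Fap was close to restricted to fibroblasts. In the PBS-labelled library it held 70.8 CPM (61.6 to 81.1, 212 UMIs) there, which was 91.4% of the library's Fap UMIs. Outside fibroblasts the 27 points held 0 to 2.93 CPM, 9 of them with 0 UMIs. Monocytes had 0 UMIs of Fap, which at the limit of 3 counts allows a level of up to 0.892 CPM, beside 47 UMIs of Dpp4. The step from fibroblasts to the next class in order, an unnamed cluster led by Dct and Acta2 with 3 UMIs, was 24.1-fold (8.15 to 118). Across the keratinocyte classes of both libraries only 14 Fap UMIs were counted, against 590 of Dpp4.

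Dpp8 and Dpp9, the cytosolic pair that holds the Nlrp1 inflammasome in check, were found in all classes. Dpp8 was the most even of the 7 genes in the PBS-labelled library. Its lowest level was 39.9 CPM in dividing basal keratinocytes and its highest 70.0 CPM (40.8 to 112) in lymphatic endothelial cells, and the highest class was 1.47 times the median class. No step between neighbouring classes left out 1 in either library. Macrophages (68.6 CPM, 59.0 to 79.2) and monocytes (62.8 CPM, 54.6 to 71.8) nevertheless lay above basal cells (40.5 CPM, 35.6 to 46.0), with intervals that did not overlap. Dpp9 had the wider range. Macrophages held 60.4 CPM (51.4 to 70.4), monocytes 52.1 CPM (44.6 to 60.4) and fibroblasts 45.8 CPM (38.4 to 54.1), all 3 above suprabasal keratinocytes with 23.9 CPM (21.5 to 26.6). Across the 12 keratinocyte points of both libraries Dpp9 stayed between 22.0 and 31.7 CPM.

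Prep, an enzyme of small proline-containing peptides, had its highest level in basal keratinocytes in both libraries. They held 49.8 CPM (44.4 to 55.8) with the PBS label and 45.9 CPM (39.2 to 53.5) with the sitagliptin label. Upper follicle cells held 25.6 and 27.7 CPM, so that basal cells were 1.95-fold and 1.66-fold higher. Dividing basal cells held 39.7 and 35.0 CPM. They came next in the sitagliptin-labelled library, where the step from basal cells left out 1. In the PBS-labelled library sebocytes, at 40.9 CPM on 40 UMIs, came between, and no step between neighbouring classes left out 1. Monocytes were at 23.2 CPM and macrophages at 27.6 CPM, so Prep did not share the phagocyte pattern of Prcp.

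Prcp, a lysosomal enzyme that removes the amino acid after a proline from the carboxyl end of angiotensin and melanocortin peptides, was highest in phagocytes. Monocytes of the PBS-labelled library held 180.0 CPM (165.9 to 194.9) and macrophages 158.4 CPM (143.7 to 174.2). Fibroblasts came next at 29.4 CPM (23.6 to 36.2), 5.39-fold (4.27 to 6.85) below macrophages. Monocytes held 30.8% and macrophages 21.6% of the library's Prcp UMIs. At the finer resolution the monocyte class fell into the cluster without a name, led by Lyz1, Retnla and H2-Aa, with 228.1 CPM of Prcp (208.4 to 249.2, 368 cells) and the cluster still named monocyte, led by Ly6c2 and Lyz2, with 93.2 CPM (76.7 to 112, 218 cells). Macrophages lay between these clusters, so the order of monocytes and macrophages turns with the resolution. Langerhans cells, the resident antigen-presenting cells of the epidermis, held 29.4 and 26.4 CPM in the 2 libraries. In keratinocytes Prcp of the epidermis and upper follicle was lowest in dividing basal cells (10.8 and 9.78 CPM) and reached 22.2 and 19.7 CPM in suprabasal cells. The last 500 bases of Prcp transcripts share 109 of 940 words of 31 bases with Phf7 or Gm26862, while the other 6 genes share none with any other gene.

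Dpp7, its lysosomal relative, had its highest level in macrophages of the PBS-labelled library. They held 41.0 CPM (33.7 to 49.4), 2.31-fold (1.65 to 3.28) above fibroblasts with 17.7 CPM (13.3 to 23.2). Monocytes held 15.5 CPM (11.5 to 20.3). The 12 keratinocyte points ranged from 7.28 to 12.5 CPM.

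The genes with the most similar profile were taken over 29 class and library points, which share libraries and free RNA, from 6561 genes. The closest to Dpp4 was Camk2d (Pearson's r = 0.84), followed by Celf4, Yipf5, Svep1 and Tmed3, each highest in fibroblasts of the PBS-labelled library. Fap was closest to Scn7a (r = 0.96), Prrx2, Islr, P4ha3 and Cadm3. Among the genes closest to Prcp were Itgam (r = 0.92), Naaa, Nrros and Clec4a3, and among those closest to Dpp7 were Rap2c (r = 0.80) and Nipa2 (r = 0.72). Dpp9 was closest to Ube2d2a (r = 0.88), Prep to Txndc17 (r = 0.85) and Il33 (r = 0.84), and Dpp8, whose profile was flat, to Setd3 with only r = 0.68. Between members the values were 0.65 for Dpp4 and Fap, 0.65 for Prcp and Dpp9, and -0.38 for Prep and Dpp8.

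Among the other peptidases, several showed the patterns of the 7 genes. Ctsc, which encodes the lysosomal dipeptidyl peptidase cathepsin C, was at 882.4 CPM in macrophages and 552.7 in monocytes of the PBS-labelled library. Pepd, the enzyme that splits dipeptides ending in proline, was at 285.4 CPM in macrophages and Tpp1, a lysosomal tripeptidyl peptidase, at 300.0. The cell-surface peptidases Ace (128.7 CPM), Anpep (84.6 CPM) and Enpep (32.8 CPM) were highest in fibroblasts of the PBS-labelled library, as were Dpp4 and Fap. The cytosolic enzymes Dpp3 and Xpnpep1 were highest in suprabasal cells in both libraries, at 94.2 and 93.2 CPM for Dpp3 and 103.1 and 119.1 CPM for Xpnpep1. The inactive relatives of Dpp4 were nearly absent, with 20 and 12 UMIs of Dpp6 and 2 and 1 UMIs of Dpp10 in the classes of the 2 libraries. Of the chromosome neighbours, Gcg had 2 UMIs and 0, and Ifih1, a sensor of viral RNA, was highest in macrophages at 121.9 CPM with 71.2 CPM in fibroblasts.

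The partners of these enzymes had their own distribution. Gpc3, a glypican that binds DPP4, was highest in fibroblasts at 288.8 CPM, and Fn1, the fibronectin to which DPP4 adheres, was at 1802 CPM in monocytes and 1095 CPM in fibroblasts. Ada, the adenosine deaminase anchored by human DPP4, was below 10 CPM in every class. Of the Nlrp1 pathway, Pycard, the inflammasome adaptor, was highest in suprabasal cells at 644.9 and 551.7 CPM. Gsdmd, the pore former of pyroptosis, was at 44.3 CPM in monocytes and 0.555 CPM in suprabasal cells of the PBS-labelled library.

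Levels were then compared between the libraries, sitagliptin-labelled over PBS-labelled. The rule took a ratio of at least 1.5-fold either way among genes with at least 20 UMIs over both libraries. In the 9 named classes other than fibroblasts, 52 pairs of a gene and a class could be compared and 5 were past the rule. Over all genes the share past it was 10.8% in basal, 10.7% in dividing basal, 13.9% in suprabasal, 9.86% in dividing suprabasal, 8.84% in upper follicle and 8.83% in dividing upper follicle cells, 15.8% in outer root sheath or bulge cells, 18.7% in Langerhans cells and 37.5% in sebocytes. The members' count was near that background. With the settings reported here, no member was past the rule in basal, suprabasal or upper follicle cells. Dpp4 was past it downward in dividing suprabasal cells (5.95 against 9.60 CPM, ratio 0.62, 0.37 to 1.04) and in cells of the outer root sheath or bulge (3.43 against 6.50 CPM, ratio 0.53, 0.22 to 1.34). Both intervals included 1. Of the genes whose UMIs were within 1.5 times those of Dpp4, 17.5% passed the rule in the former class and 46.6% in the latter. The remaining 3 were Dpp7 in outer root sheath or bulge cells (ratio 1.76, 0.79 to 4.62), and Prcp (1.97, 0.89 to 5.15) and Dpp7 (0.62, 0.31 to 1.30) in sebocytes. Sebocytes came from different clusters, with 59 of 77 PBS-labelled cells in one and 1371 of 1444 sitagliptin-labelled cells in another. In the unnamed cluster led by Dct and Acta2, where 20.7% of all genes were past the rule, Dpp8 was past it downward with 34.0 against 57.7 CPM.

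The ratio of Dpp8 was above 1 in 9 of the 11 classes compared, fibroblasts included, and that of Dpp4 in 1 of 8. The classes share the same 2 libraries, and the share of all genes with such counts was not determined. For Dpp4 the interval lay below 1 in 2 of the 8, fibroblasts included. For Dpp8 it lay above 1 in 4 of the 11, fibroblasts included, and below 1 in 1. Suprabasal cells held 51.2 CPM against 41.1 (ratio 1.25, 1.13 to 1.37), basal cells 50.6 against 40.5 (1.25, 1.02 to 1.52) and upper follicle cells 63.5 against 53.7 (1.18, 1.04 to 1.34). With at most 5% mitochondrial UMIs per cell, the ratio fell to 1.01 in basal cells and turned to 0.88 in upper follicle cells, while in suprabasal cells it was 1.34. Within suprabasal clusters the Dpp8 ratio was 1.09 (0.95 to 1.25) in the one led by Krt6b and Krt16 and 1.44 (1.21 to 1.73) in the one led by Lor. Dpp9 was lower in upper follicle cells (26.2 against 31.5 CPM, ratio 0.83, 0.69 to 0.99), but 1.33 when cells were thinned to 1000 UMIs. Within suprabasal clusters the Dpp9 ratio was 0.78 (0.64 to 0.95) in the one led by Krt6b and Krt16 and 1.03 (0.82 to 1.30) in the one led by Lor.

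Prep and Dpp4 were lower in suprabasal cells of the sitagliptin-labelled library, Prep with 27.6 against 35.1 CPM (ratio 0.79, 0.70 to 0.88) and Dpp4 with 6.52 against 8.94 CPM (0.73, 0.58 to 0.91). The class was made up differently in the 2 libraries. A cluster led by Hrnr and Flg2 had 44 PBS-labelled and 2858 sitagliptin-labelled cells, and in the latter Dpp4 was at 4.71 CPM. Within the Krt6b and Krt16 cluster the Dpp4 ratio was 0.86 (0.64 to 1.15) and within the Lor cluster 1.05 (0.67 to 1.71), and with these clusters weighted equally the class ratio was 0.92. For Prep it was 0.83 (0.71 to 0.97) in the first cluster, 0.83 (0.68 to 1.03) in the second and 0.83 with equal weights, but 1.04 for the class at Leiden resolution 2. Prcp was at 0.70 (0.57 to 0.87) within the Lor cluster, 19.9 against 28.2 CPM, and at 1.03 within the other. In basal cells the Dpp4 ratio was 0.94 (0.53 to 1.62), with 0.44 when cells were thinned to 1000 UMIs and 1.26 with at most 5% mitochondrial UMIs.

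**Figure D3:**
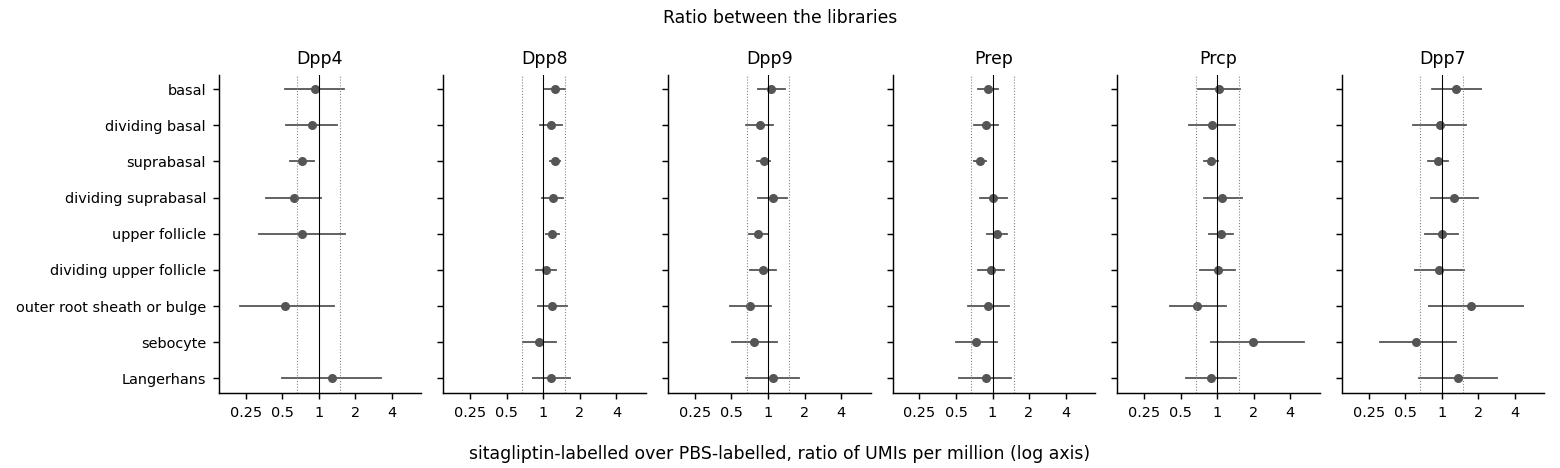
Ratio of the level in the sitagliptin-labelled to that in the PBS-labelled library (log axis) for 6 of the genes in the 9 named classes other than fibroblasts, with exact 95% intervals; dotted lines mark 1.5-fold either way, and pairs with under 20 UMIs, among them all of Fap, are left out. Most points lie within the dotted lines. Those of Dpp8 lie right of 1 in all classes shown except sebocytes, with intervals that leave out 1 in 3 classes.

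Fibroblasts could not be compared on like terms. The 60 cells of this class in the sitagliptin-labelled library held Krt14, the basal keratin, at 9362 CPM and Col1a2 at 3036 CPM, against 2006 and 9093 CPM in the PBS-labelled library. Here 57.3% of all genes tested were past 1.5-fold, made up of 21.3% higher and 36.0% lower, and of the 7 members 1 was higher (Dpp8) and 5 lower. Dpp4 was at 23.6 CPM (6.42 to 60.4) on 4 UMIs and Fap at 17.7 CPM (3.65 to 51.7) on 3 UMIs. At the finer resolution only 9 of the 60 cells joined the main fibroblast cluster, with 464 cells from the PBS-labelled library. These 9 held Dpp4 at 70.9 CPM (14.6 to 207.2, 3 UMIs) beside 207.1 CPM (190.8 to 224.5) in the PBS-labelled cells, and Fap at 70.9 beside 73.5 CPM. The other 51 fell in a second fibroblast cluster, with 14 cells from the PBS-labelled library. There Dpp4 was at 7.9 CPM (0.199 to 43.8, 1 UMI) beside 61.0 CPM (26.3 to 120.2, 8 UMIs) in the PBS-labelled cells. Krt14 was at 11767 beside 8817 CPM and Col1a2 at 1249 beside 1701 CPM. The part of keratinocyte RNA in the Dpp4 level of the class was not tested.

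The 6 lists of other peptidases held 21 genes in all. In suprabasal cells 16 had enough UMIs, 1 was higher (Prss16) and none lower. In basal cells 14 had enough, 1 was higher (Xpnpep3) and 1 lower (Anpep, 5.50 against 8.94 CPM). In upper follicle cells none of 14 was past 1.5-fold. In dividing basal cells 3 of 15 were lower and none higher, and in Langerhans cells 3 of 13 were higher and none lower. In sebocytes 2 of 14 were higher and 3 lower, and in fibroblasts 3 of 17 were higher and 5 lower. The other classes had 2 or 3 past the rule. Over all genes the share past the rule either way was 13.9% in suprabasal, 10.8% in basal and 8.84% in upper follicle cells. It was 10.7% in dividing basal cells, 18.7% in Langerhans cells, 37.5% in sebocytes and 57.3% in fibroblasts. In the other classes it was 8.83% to 20.7%. Of the 5 partners of DPP4, Fn1 and Ada were lower in basal and suprabasal cells, Fn1 with 3.58 against 7.94 CPM in basal cells, while Gpc3 and Cav1 were higher in suprabasal cells, Cav1 with 64.0 against 41.2 CPM. Fn1 is abundant in fibroblasts and monocytes, and Col1a2 in basal cells went the same way, with 1.10 against 12.2 CPM. The part of free RNA in that difference was not tested. Ada was at low levels, with 1.65 against 2.48 CPM in basal and 1.24 against 1.94 CPM in suprabasal cells. Because the suprabasal class was made up differently in the 2 libraries, its ratios may differ within clusters, where the listed genes were not compared. None of the 3 genes of the Nlrp1 pathway with enough UMIs in suprabasal cells was past the rule. Elsewhere Casp1 was past it downward in dividing basal cells and in the unnamed cluster led by Dct and Acta2, and upward in sebocytes. In fibroblasts Pycard was higher and Casp1 and Gsdmd were lower.

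Co-detection was examined in cells with at least 3 UMIs of Col1a2, a collagen gene of fibroblasts. The PBS-labelled library had 497 such cells, 472 of them in the fibroblast class, with a median of 5614 UMIs. They held Pdgfra, a fibroblast receptor, at 487.2 CPM, while 3 cells had a UMI of Pecam1 and 30 one of Ptprc, markers of endothelial and immune cells. Krt14 was present in 87.7% of them, at a median of 2 UMIs. Dpp4 was detected in 253 cells (50.9%, 46.4 to 55.4), with 1 UMI in 118 cells, 2 in 50 and at least 3 in 85, up to 11. Outside these cells 5.74% of cells had a Dpp4 UMI at a median depth of 7110 UMIs. Fap was detected in 152 cells (30.6%, 26.6 to 34.8), and in 0.313% of the others. Of the remaining members, Dpp9 was found in 24.1%, Dpp8 in 21.9%, Prcp in 16.1%, Prep in 15.7% and Dpp7 in 11.3% of the Col1a2 cells. At least 1 of the 7 was found in all but 99 of the 497 cells, and 2 cells had 6.

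Dpp4 and Fap both increased with the Col1a2 count of the cell. The 53 cells with 3 to 9 Col1a2 UMIs held Dpp4 at 25.7 CPM and Fap at 15.8 CPM. The 100 cells with 10 to 29 held 154.3 and 28.7 CPM, and the 344 cells with at least 30 held 209.1 and 77.1 CPM. Thinned to 3000 UMIs, 36.8% of the middle and 38.4% of the upper group had a Dpp4 UMI, so that Dpp4 was close between them, whereas Fap went from 5.26% to 19.4%.

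Cells with a Dpp4 UMI more often had a Fap UMI: 39.5% (33.5 to 45.8, 100 of 253) against 21.3% (16.3 to 27.0, 52 of 244). Prep went the same way, with 21.3% (16.5 to 26.9) against 9.84% (6.40 to 14.3). For Dpp9 the shares were 28.5% and 19.7%, for Dpp8 24.5% and 19.3%, for Prcp 15.4% and 16.8% and for Dpp7 11.5% and 11.1%, each pair with overlapping intervals. Cells with Dpp4 were also deeper, with a median of 6688 against 4270 UMIs. Once 405 cells were thinned to 3000 UMIs, 145 had a Dpp4 UMI, and Fap was found in 19.3% (13.2 to 26.7) of these and 14.6% (10.5 to 19.5) of the rest, and Prep in 8.97% and 5.38%. The Fap difference was 18.2 percentage points (9.90 to 26.2) before and 4.70 (-3.11 to 13.1) after thinning. After thinning a difference in Fap or Prep between the cells was therefore not detected. Thinning also lowered detection, for Fap from 30.6% of 497 cells to 16.3% of 405, and left cells that had lost their Dpp4 UMIs among the rest. It therefore cannot tell an absent difference from one lost with the UMIs.

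**Figure D4:**
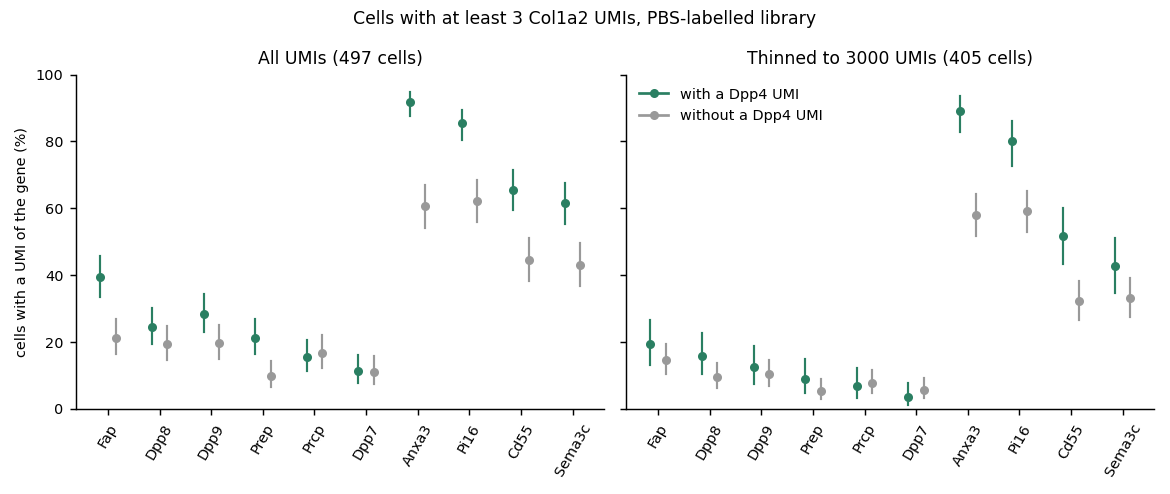
Share of cells with a UMI of each gene among cells with (green) and without (grey) a Dpp4 UMI, in the Col1a2 cells of the PBS-labelled library, with exact 95% binomial intervals, for all UMIs and after thinning each cell to 3000. The gap for Fap narrows from 39.5 against 21.3% to 19.3 against 14.6%, and the gaps for Anxa3 and Pi16 stay wide.

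Adventitial fibroblast genes, which mark the cells around vessels and in the fascia, were more often found beside Dpp4, also when cells were thinned to 3000 UMIs. Anxa3 was found in 89.0% (82.7 to 93.6) of thinned cells with Dpp4 and 58.1% (51.8 to 64.1) of those without. Pi16 was found in 80.0% (72.6 to 86.2) and 59.2% (53.0 to 65.3), and Cd55, a complement regulator, in 51.7% (43.3 to 60.1) and 32.3% (26.7 to 38.4). For Sema3c the shares were 42.8% and 33.1%, with overlapping intervals. Thinned to 1000 UMIs, the intervals stayed apart for Pi16 (60.5% and 41.8%) but overlapped for Anxa3 (46.9% and 37.0%) and Cd55 (16.1% and 14.7%). Postn, a matrix gene, was level at 49.0% and 44.2%. The papillary genes Ntn1 (8.97% and 11.2%) and Col23a1 (2.76% and 5.38%) did not stand apart, and Crabp1 was found in 1 and Apcdd1 in 5 of the 405 cells.

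In the sitagliptin-labelled library 49 cells had at least 3 Col1a2 UMIs, 26 of them in the fibroblast class, with a median of 4 Col1a2 and 20 Krt14 UMIs. Dpp4 was found in 2 of them (4.08%, 0.498 to 14.0), Fap in 3 (6.12%, 1.28 to 16.9) and Dpp8 in 12. These cells held Pdgfra at 60.4 CPM beside 487.2 CPM in the PBS-labelled cells, so the shares of Dpp4 and Fap are given without a comparison.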

How the data were processed

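The counts of UMIs per gene and barcode are those the authors deposited, not normalized, per the file headers. Per the submitters' processing notes, Cell Ranger 3.1.0 was used with the mm10 genome. The cell-calling step and the use of strand in counting are not given in the sources used here. Groups follow the treatment labels. The members and lists were chosen with earlier results of these data known. Barcodes with 500 genes or more, 1000 UMIs or more and no more than 10% of UMIs from mitochondrial genes were scaled to 10000 per cell, log-transformed and clustered together (scanpy 1.11.5, 2000 variable genes without the 7 members, 30 principal components, 15 neighbours, Leiden resolution 1 with leidenalg 0.10.2, seed 1). No doublet caller was run, so doublets remain. Clusters took the class of the highest mean marker score among 26 marker lists, and stayed unnamed if that score was under 1, if the next class was within 0.3, if fewer than 3 markers were in at least 10% of cells, or if the 10 leading genes held as many markers of another class. UMIs were summed per class and library, with exact Poisson intervals for levels, Clopper-Pearson intervals for shares and conditional binomial intervals for ratios (scipy 1.17.1). Named genes are the members, the genes of the fixed lists and, per member, the 5 genes with the highest correlation of log2(CPM + 1) among those with at least 50 CPM in a point and 100 UMIs. Some genes this rule gives are not reported here. The step for ratios was tested on simulated data. Gene positions are from GENCODE and promoters from RefSeq. Alternatives were stricter cell filters, other totals, thinning, other clusterings and other gates. Figures were drawn with matplotlib 3.10.9.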

Additional observations from a re-analysis of the deposited data

How the results depend on the processing

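With 1 library per group no variation between mice or preparations enters any interval, and low counts limit Dpp4 and Fap outside fibroblasts. No paired analysis was possible because each group had 1 library and no test was run. Over 539 values under an alternative, 475 stayed within the interval of the reported value, or within 1.5 times the reported count, and 1 of the ratios past 1.5-fold crossed 1: Dpp4 in outer root sheath or bulge cells, at 1.63 when cells were thinned to 1000 UMIs. Of all library ratios, past the rule or not, 39 of 378 alternative values crossed 1, 3 of them for a ratio whose reported interval left out 1 (Dpp8 and Dpp9 in upper follicle cells and Prep in suprabasal cells). With totals that leave out mitochondrial, ribosomal and haemoglobin genes, Dpp4 in fibroblasts was 249.3 and Prcp in macrophages 191.2 CPM. Prcp in macrophages was 190.2 CPM as the mean over cells and 175.3 CPM after thinning to 1000 UMIs, and in the monocyte class it was 93.5 CPM at Leiden resolution 2. Dpp4 in basal over upper follicle cells of the PBS-labelled library went from 2.065-fold to 10.3-fold over 8 alternatives, the highest with at most 5% mitochondrial UMIs. In the sitagliptin-labelled library it went from 2.58-fold to 4.43-fold. The count of pairs past 1.5-fold, 5 as reported, was 3 with at most 5% mitochondrial UMIs (6 classes), 3 at Leiden resolution 0.5, 0 with a 2-fold rule and 0 with at least 100 UMIs. It was 6 when cells needed 1000 genes and 2000 UMIs, as the mean over cells, and after thinning to 1000 UMIs, where 29 pairs could be compared. The share of Col1a2 cells with Dpp4 was 28.7% from 1 Col1a2 UMI, 58.6% with at most 5% mitochondrial UMIs, 27.2% when 2 Dpp4 UMIs were asked for, and 16.3% and 35.8% when thinned to 1000 and 3000 UMIs. The Fap difference by Dpp4 was 1.40 percentage points at 1000 and 4.70 at 3000 UMIs. The cause of these moves was not tested. Equal weights for the suprabasal clusters were chosen after seeing the data.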

Other observations

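Barcodes over the mitochondrial limit, which enter no comparison, also held the fibroblast members. In the PBS-labelled library 146 such barcodes had at least 3 Col1a2 UMIs, at a median of 2258 UMIs. Dpp4 was found in 13.7% (8.57 to 20.4) of them at 69.9 CPM and Fap in 14.4% (9.13 to 21.1) at 54.1 CPM, beside 175.1 and 61.7 CPM in the 497 retained cells. The sitagliptin-labelled library had 8 such barcodes, with 0 UMIs of either gene.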
